A study of Mustela putorius furo with 7 samples.

Results

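The 500 regions with the most ATAC-seq signal in ferret pancreatic ductal epithelial (PDE) cultures are described here. They were selected on the signal itself. For each region the log2(signal + 1) was averaged over the CF libraries and over the WT libraries, the mean of the 2 averages was taken, and the 500 regions with the highest value were kept. One scaffold, GL897838, was left out of the ranking, so the 500 came from 95124 of the 95129 regions in the deposited matrix and made up 0.526% of them. The value used for selection is therefore given as a description, with no test. CF cultures carried a knockout of both copies of CFTR (CFTR KO/KO) and numbered 3, and WT cultures carried the normal gene and numbered 4. Both came from newborn ferrets of 1 to 3 days. In both, ductal cells from the pancreas had been passaged 10 times and then kept for 14 days at an air-liquid interface (ALI), where they form a polarized layer, with about 50000 cells taken from each culture. By the labels each library has a donor number of its own, while the study's methods give 3 donors for each genotype, so it is not settled that the 4 WT libraries stand for 4 donors. The p-values then measure only how far these libraries spread, which may be technical.

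CFTR is the anion channel through which ductal cells of the pancreas secrete bicarbonate and fluid, and its loss causes cystic fibrosis. In ATAC-seq a transposase cuts accessible DNA and adds sequencing adapters to it, so that reads gather where nucleosomes are absent or displaced, mostly at promoters and enhancers. Regions at the top of such a ranking commonly include promoters of genes active in most cells. A sequence that exists in many copies in the cell, but in fewer copies in the assembly, also gathers the reads of all its copies. Gene annotation and sequence of the ferret assembly used by the authors, MusPutFur1.0, were not used here, so neither the genes near the 500 regions nor their copy number was examined, and the ductal identity of the cultures and the CFTR locus could not be checked from these regions.

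The libraries held 3226534 (WT3) to 11047724 (CF3) reads in regions, and each CF library was deeper than each WT library. GL897838, with 5 regions between bases 3190 and 12390, took 7.15% to 8.97% of the reads in the CF libraries and 12.95% to 22.6% in the WT libraries. The difference of the means, 8.08% ± 0.909 (SD, n = 3) against 18.0% ± 5.27 (SD, n = 4), had p = 0.0571 (two-sided exact permutation test). All CF libraries were below all WT libraries, and this is the smallest p that the test can give with 3 and 4 libraries. The reads on this scaffold are part of the total of each library, so read shares are given with and without it. Its part in the authors' scaling of the signal was not tested. WT3 was the shallowest library and stood highest over the 500 regions, with a median deviation of 0.53 on the log2 scale from the mean of the 7 libraries, against −0.21 to 0.14 in the other libraries.

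Signal fell steeply from the first of the 500 regions to the last. The mean log2 signal ran from 16.75 at rank 1 to 9.23 at rank 500, a 184-fold range, and rank 10 was already 17.8-fold above rank 500. The median over the 500 regions was 9.68, against 4.59 over all regions. At the lower edge the order was nearly flat, where the last 2 of the 500 had 9.232 and 9.231 and the first 2 outside had 9.230 and 9.230. The last region inside, GL897119:2862114-2862617, was 504 bp wide, and the first outside, GL896973:6548249-6550706, was 2458 bp wide. A boundary at 500 therefore separated regions of the same level, and 263 regions were in the top 500 of each of the 7 libraries taken alone. Ranking by the CF libraries alone kept 457 of the 500 and ranking by the WT libraries alone kept 443.

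**Figure D1:**
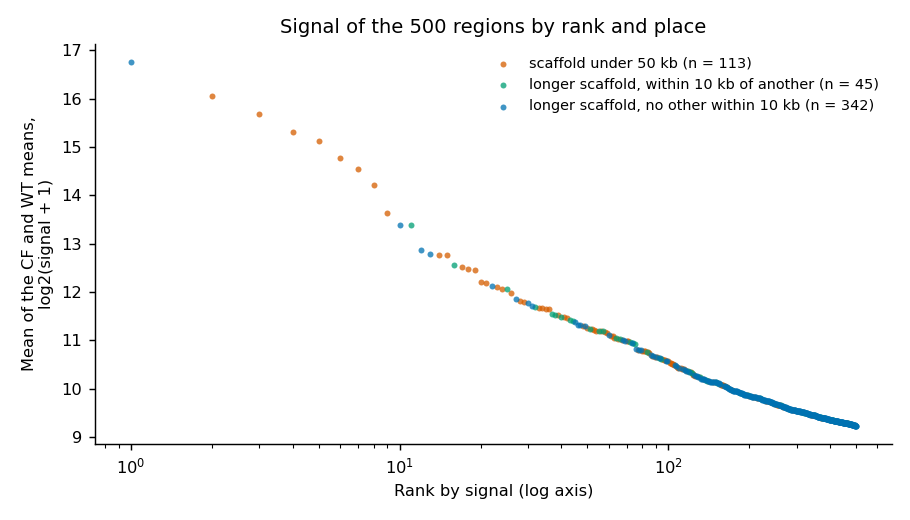
Mean log2(signal + 1) of the CF and WT averages (y axis) against rank on a log axis (x axis), 1 point for each of the 500 regions, coloured by place on the assembly. The level falls from 16.75 to 9.23, and 8 of the first 10 points lie on scaffolds under 50 kb.

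The region at rank 1, GL896904:24071810-24072324, was 515 bp wide and lay on a scaffold that reaches at least base 30403358. Its signal was 73884, 58227 and 65959 in CF1, CF2 and CF3 and 122517, 130606, 307568 and 243713 in WT1, WT2, WT3 and WT4. All WT libraries were above all CF libraries, and the WT libraries spanned the wider range. It held 78052 to 147041 reads per library, or 152 to 286 reads per base. The median over the 500 regions was 0.615 reads per base, and 14 regions exceeded 10 reads per base.

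Rank 2, AEYP01112718:1-1846, filled the whole covered part of a small contig. Its signal was 47113, 36280 and 40666 in CF1 to CF3 and 76197, 81883, 173701 and 149357 in WT1 to WT4, and the 7 libraries stood in the same order as at rank 1. Rank 3, AEYP01115466:1-1206, did not follow that order. Its signal was 63991, 42147 and 44560 in CF1 to CF3 and 64770, 34956, 84078 and 49890 in WT1 to WT4, so that the genotypes overlapped and WT2 was the lowest library. Ranks 4 to 8 were contigs of the same series (AEYP01114413, AEYP01116162, AEYP01117170, AEYP01116558 and AEYP01115527), each covered from its first base and 1047 to 1345 bp wide, and their library-to-library pattern matched rank 3 within 0.0179 to 0.0525 log2 units (root mean square over the 7 libraries). Rank 9, AEYP01116969:1-1118, was lower in CF, with 11961, 8761 and 6851 against 12892, 17496, 21452 and 22964. Rank 10, GL897012:2220644-2222066, was again like rank 3, with 13119, 8757 and 9558 against 13451, 7275, 17605 and 8755.

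The 500 regions covered 663709 bp, 1.10% of the bases in regions, and held 11.7% to 17.6% of each library's reads. The share was 16.0%, 12.5% and 12.8% in CF1 to CF3 and 15.6%, 11.7%, 17.6% and 13.9% in WT1 to WT4. The genotypes overlapped, with means of 13.8% ± 1.96 (SD) over 3 CF and 14.7% ± 2.48 over 4 WT libraries, and the two-sided exact permutation test gave p = 0.629. As a share of reads outside GL897838 the means were 15.0% ± 2.27 in CF and 18.0% ± 3.70 in WT (SD; exact permutation test, p = 0.229). The shares outside GL897838 were 17.6%, 13.5% and 14.0% in CF1 to CF3 and 17.9%, 13.6%, 22.7% and 18.0% in WT1 to WT4. With WT3 left out and the reads of all regions as the total, the CF mean was above the WT mean by 0.0439 percentage points. The difference outside GL897838 was not computed without WT3.

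Within the 500 regions the reads were concentrated again. The first 10 regions held 4.26% to 8.49% of a library's reads, 4.96% ± 0.876 (SD) in the 3 CF and 6.80% ± 1.43 in the 4 WT libraries, with p = 0.114 in the exact permutation test. Outside GL897838 the shares were 5.40% ± 1.01 and 8.39% ± 2.22 (SD), with the same p from the exact test. The first 9 regions in WT4 and 12 in WT3 sufficed to reach 50% of the reads of the 500, against 31 to 47 in the CF libraries and 23 to 24 in WT1 and WT2. The 400 regions below rank 100 held 3.70% to 5.24% of the reads, with a CF mean of 4.95% ± 0.288 (SD, n = 3) and a WT mean of 4.32% ± 0.520 (SD, n = 4; exact permutation test, p = 0.114). Outside GL897838 their means were nearly equal, at 5.38% ± 0.346 and 5.28% ± 0.606 (SD; exact permutation test, p = 0.743). The next 500 regions by rank held 3.90% ± 0.173 in CF and 3.47% ± 0.294 in WT (SD), and 4.24% and 4.23% outside GL897838.

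**Figure D2:**
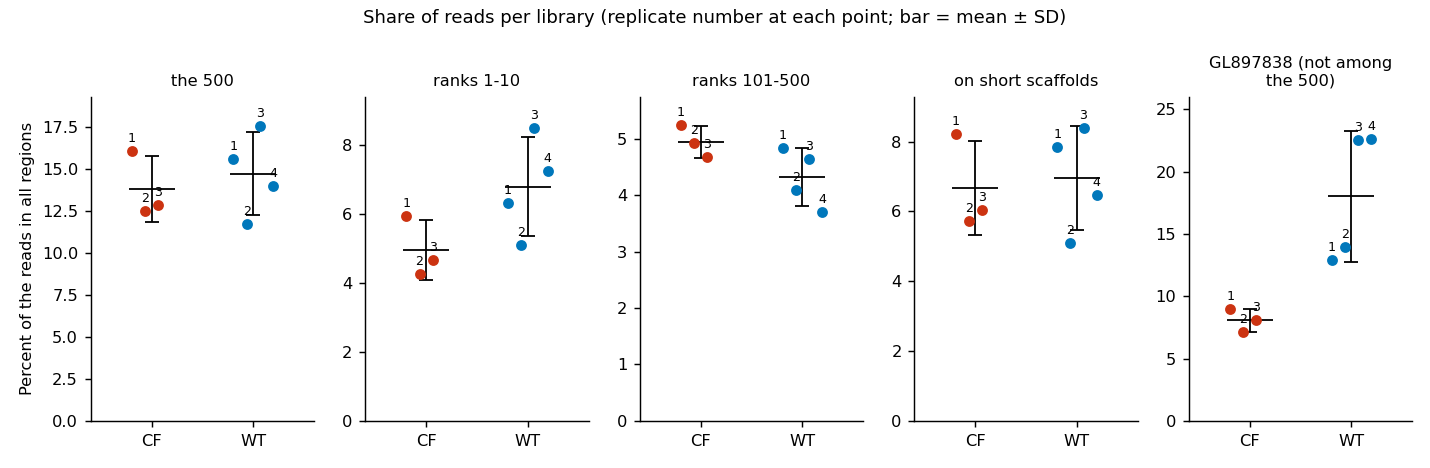
Percent of each library's reads in regions (y axis) that fell in the 500 regions, in their first 10, in the 400 below rank 100, in those on short scaffolds and on GL897838, by genotype; points are libraries with their replicate number, bars the mean and SD. The CF and WT points overlap for the 500 regions, whereas on GL897838 the 3 CF points lie at 7.15% to 8.97%, below all WT points.

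The 500 regions were wide. Their median width was 1334 bp, with quartiles at 939 and 1691 bp and a range of 268 to 3627 bp, against a median of 557 bp over all regions. The next 500 regions by rank were also wide, with a median of 1381 bp and 36.6% at 1500 bp or more. Regions of 1500 bp or more numbered 196 of the 500 (39.2%), compared with 1.66% of the remaining regions, and the 196 were 11.1% of the 1765 regions of that width in the matrix. Signal was summed over the region, so width entered the value that selected the members. When regions were ranked by signal per base, 296 of the 500 were kept and the median width was 770 bp.

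The highest regions were not the widest. Ranks 1 to 100 had a median width of 1024.5 bp, with 9 regions of 1500 bp or more, and the other 400 had 1434 bp, with 187. Over the 500 regions Spearman's rho between signal and width was −0.32, whereas over all other regions it was 0.76, as a description across regions that share the same libraries. Selection on signal can by itself change rho within the 500, so these 2 values are not directly comparable. The widest member, GL896998:7314108-7317734, had 3298, 2034 and 2292 in CF1 to CF3 and 2686, 1387, 3165 and 1991 in WT1 to WT4, and the genotypes overlapped. The 5 widest ran from 2716 to 3627 bp, and none of them was called. The 5 narrowest ran from 268 to 291 bp, and 2 of them began at base 1 of their scaffold. The narrowest, GL897110:1-268, had 773, 771 and 641 in CF and 861, 1255, 1243 and 964 in WT, with all CF libraries lower. Its log2 change of −0.56 ± 0.18 (SE) did not pass the test across all regions (limma, adjusted p = 0.054). The other, GL897360:1-286, had 957, 971 and 739 in CF and 1151, 1646, 1615 and 1356 in WT, and its change of −0.69 ± 0.18 (SE) passed the adjusted p in limma (0.017) without reaching the fold threshold.

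**Figure D3:**
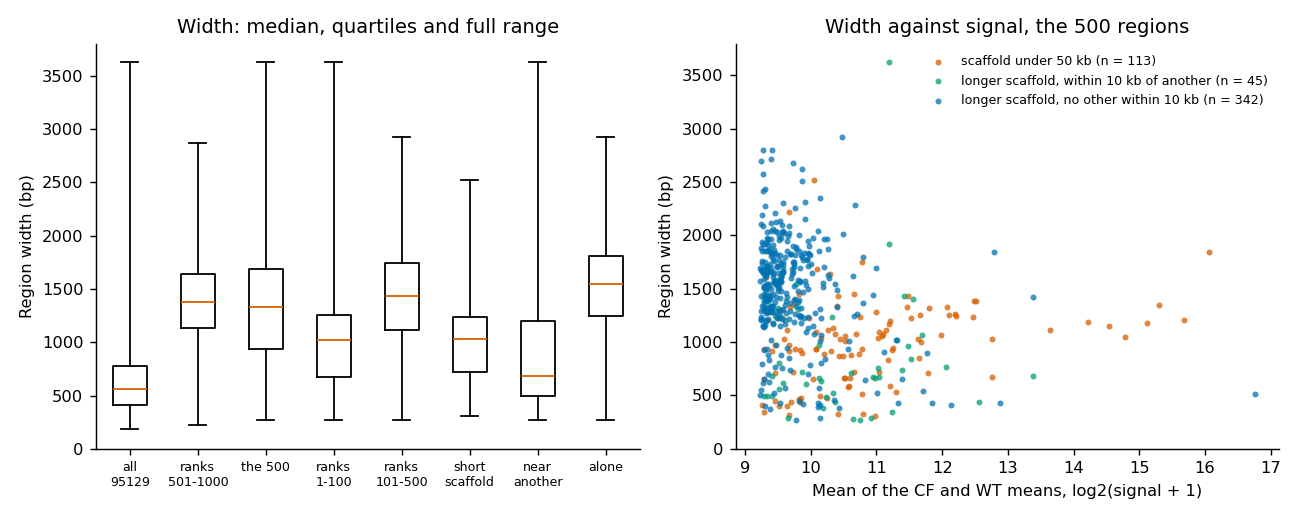
Left, region width in bp as median, quartiles and full range for all regions, for the next 500 by rank and for the 500 regions with their subsets; right, width against mean log2 signal for the 500. The median is 557 bp over all regions and 1334 bp over the 500, and the points above a log2 signal of 13 are at most 1846 bp wide.

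Nearly all of the 500 regions carried a called peak in each culture. In the authors' peak lists 496 of the 500 (99.2%) had a peak in all 7 lists, compared with 26.0% of the other regions and 99.0% of the next 500 by rank. The exceptions lay at ranks 389 and 411, with a peak in 6 lists, at rank 466 with 4 and at rank 487 with 5. The median fold enrichment over background given by the peak caller was 8.93 over the 500 regions and 5.34 over all regions, with a range of 1.87 to 31.2 in the 500. In the next 500 by rank it was 9.70. Fold enrichment did not follow signal within the 500, where Spearman's rho was −0.02 compared with 0.53 over the other regions. The 500 were selected on signal, which can by itself lower rho among them, so the 2 values are not directly comparable. Rank 1, with 184-fold the signal of rank 500, had a median fold enrichment of 23.6, and the highest, 31.2, belonged to rank 309 (GL896948:3123676-3124106). The lowest, 1.87, was at rank 487, GL897733:5721-6126. The peak names contain the word dedup, whereas how duplicate reads were treated for the matrix is not given in the sources used here.

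Peaks inside the 500 regions were compared between the 3 CF and 4 WT lists. The median peak width was 1132 ± 56.1 bp (SD) over the CF lists and 1024.5 ± 112 bp over the WT lists, and the difference of 107 bp had p = 0.171 in the exact permutation test. The median fold enrichment was 8.58 ± 0.115 in CF and 9.18 ± 0.382 in WT (exact permutation test, p = 0.0571, and 0.152 after Benjamini-Hochberg adjustment over 8 quantities). All CF lists were below all WT lists, and the unadjusted p is the smallest that the test can give. In regions outside the 500 the median fold enrichment was likewise 5.51 in CF and 6.21 in WT. The list closest to a matrix column in its pattern over regions had the same genotype for 7 of 7 columns but the same replicate number for 1, so values of the lists are not set beside single columns.

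The summits of the peaks varied more in the lower ranks. In 496 regions with a summit in all 7 lists, the median distance between the outermost summits was 124 bp, or 9.67% of the region's width. It was 37.0 bp at ranks 1 to 100 and 172.5 bp in the other 400, compared with 159 bp in the next 500 regions by rank and 311 bp in regions of 1500 bp or more that were not among the 500. Summits agreed within 50 bp in 150 regions (30.2%) and spread over more than 200 bp in 209 (42.1%). The median distance between the middle CF summit and the middle WT summit was 18.0 bp.

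A large part of the 500 regions lay on small scaffolds. The last base covered by any region or peak was taken as the reach of a scaffold, a lower bound of its length, and scaffolds with a reach under 50 kb were called short. On these lay 113 of the 500 regions (22.6%), against 1.89% of the other regions and 5.40% of the next 500 regions by rank. They made up 8 of the first 10 regions and 55 of the first 100. Of the 500 regions 38 were on contigs whose names start with AEYP, and 27 began at base 1 of their scaffold. The 113 regions held 5.09% to 8.39% of a library's reads, or 5.92% to 10.8% outside GL897838, and their median width was 1030 bp. The limit of 50 kb was chosen after the data were seen.

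On longer scaffolds, 45 regions had another of the 500 within 10 kb and 342 stood alone. The regions that stood alone were wider, with a median of 1543.5 bp and 54.4% at 1500 bp or more, and the 45 neighbouring regions were narrower, with a median of 683 bp. Their median fold enrichment was 9.29 and 4.83, respectively, and 8.19 on short scaffolds. Summits spread over a median of 180 bp in regions that stood alone and 46.5 bp on short scaffolds. The 500 regions were spread over 255 scaffolds, of which 160 held a single member. Counting short scaffolds as well, 102 regions formed 31 runs of 2 or more within 10 kb of each other, and 12 of the runs had at least 4 members. The run with the most members was GL897733:21-13114, where each of the 8 regions of the scaffold was among the 500. GL897119 held the most members, 17 of its 157 regions, followed by GL897027 with 15 of 488 and GL897252 with 14 of 81. The 17 on GL897119 were narrow (median 558 bp) and 16 of them were neighbours, whereas the 15 on GL897027 were wide (median 1639 bp) and stood alone.

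The 500 regions differed in how evenly the libraries contributed. The pattern of the 7 libraries in a region was expressed as its log2 signal minus the mean of the 7. At rank 3 it was 0.28, −0.32 and −0.24 in CF1 to CF3 and 0.30, −0.59, 0.67 and −0.08 in WT1 to WT4, so that WT2 was lowest and WT3 highest. The pattern lay within 0.2 log2 units of that (root mean square) in 154 of the 500 regions (30.8%), in 75 of the first 100, in 5.60% of the next 500 regions by rank and in 0.699% of all regions. By place these were 74 of the 113 regions on short scaffolds, 38 of the 45 neighbouring regions and 42 of the 342 that stood alone. They were narrower than the other members, with a median width of 924.5 bp against 1530 bp. The CF and WT libraries overlapped in each of the 154, which the choice of a pattern with overlapping genotypes largely fixes.

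A second pattern had all CF libraries low. The summed signal of GL897838 deviated by −0.63, −1.02 and −0.88 in CF1 to CF3 and by 0.06, 0.14, 1.27 and 1.06 in WT1 to WT4. Rank 1 followed it with −0.69, −1.03 and −0.85 and 0.04, 0.13, 1.37 and 1.03. Within 0.2 log2 units of the GL897838 pattern lay 3 of the 500 regions, at ranks 1, 2 and 49, and 27 of all regions, among them the 5 regions of GL897838. Whether these regions share sequence with GL897838 was not tested.

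The spread between replicates was larger at the top of the list than further down it. The SD of log2 signal had a median of 0.36 in CF and 0.55 in WT at ranks 1 to 100, 0.19 and 0.31 in the other 400, and 0.15 and 0.26 in the next 500 regions by rank. Over all regions the medians were 0.35 in CF and 0.66 in WT, so ranks 1 to 100 stood near that level in CF and below it in WT. In 442 of the 500 regions the WT libraries varied more than the CF libraries, as they did in 74500 of all 95129 regions. By place the medians were 0.35 in CF and 0.54 in WT on short scaffolds, 0.35 and 0.55 in neighbouring regions, and 0.17 and 0.27 in regions that stood alone. Depth differed between the genotypes as well, and its part in the spread was not tested. Of the 5 regions with the largest SD between WT libraries, 2 were called lower in CF and are given later. In the other 3 no genotype difference passed the test. In GL897102:2533521-2535518 the signal was 979, 800 and 939 in CF1 to CF3 and 911, 840, 1061 and 328 in WT1 to WT4, with WT4 far below the rest. In GL897129:1717046-1717566 it was 905, 651 and 703 against 873, 419, 1163 and 414, and in GL896902:8395186-8396516 it was 859, 498 and 646 against 750, 413, 1120 and 372. There WT2 and WT4 were low and WT3 was high.

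The region at rank 471, GL896909:10312547-10315347, 1 of the 5 widest, was among the even ones, with 642, 667 and 637 in CF1 to CF3 and 594, 559, 618 and 602 in WT1 to WT4. The SD was 16.2 over the CF and 25.1 over the WT libraries, and the CF libraries lay just above the WT libraries. The log2 change there was 0.13 ± 0.17 (SE; limma, adjusted p = 0.688).

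**Figure D4:**
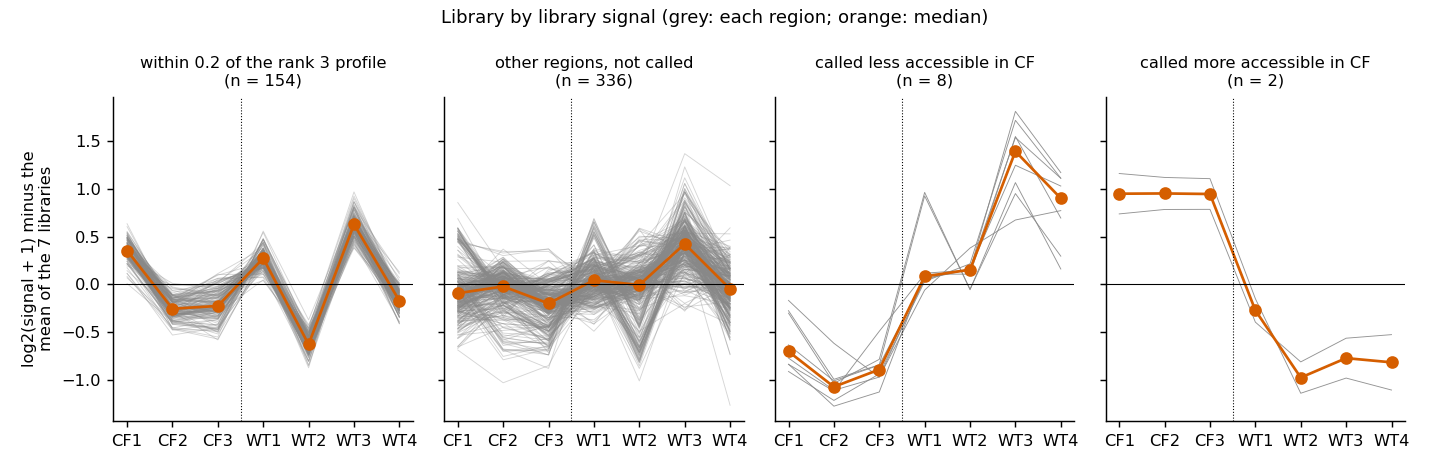
Log2(signal + 1) in each library minus the mean of the 7 libraries (y axis) for 4 sets of the 500 regions, grey lines being regions and the orange line their median. The 154 regions near the rank 3 pattern peak at WT3 and dip at WT2, the 8 regions called less accessible have all CF libraries low, and the 2 called more accessible have all CF libraries high.

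To ask how stable the 500 regions were without CFTR, CF and WT libraries were compared in a fit over all 95129 regions (limma on log2(signal + 1), adjusted p under 0.05 and a log2 change past 1). Of the 500 regions 10 were called, or 2.00%, against 10.6% of all regions. CF was higher in 2 of them, against a background of 4.31%, and lower in 8, against 6.26%. The next 500 regions by rank had 7 calls (1.40%), so the low share was not confined to the first 500. In bulk chromatin, fewer cells with an open region and less opening in each cell cannot be told apart.

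Without the fold threshold 63 of the 500 regions (12.6%) had an adjusted p under 0.05 in limma, close to the background of 11.9%. CF was lower in 58 of them, or 11.6% of the 500 against 7.29% of all regions, and higher in 5, or 1.00% against 4.59%. CF and WT were fully apart, with no overlap of their libraries, in 91 regions (18.2%, against 24.2% of all regions). CF was lower in 84 of the 91, or 16.8% of the 500 against 12.8% of all regions. The next 500 regions by rank leaned the same way, with CF lower in 45 of 48 that passed the adjusted p, and with libraries apart and CF lower in 18.6% of them. The changes were small, with 414 of the 500 (82.8%) within 0.5 on the log2 scale in either direction, against 46.8% of all regions and 87.2% of the next 500 regions by rank. The SD of the log2 changes was 0.36 over the 500 and 1.03 over all regions.

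The median log2 change of the 500 regions was −0.13, with quartiles at −0.31 and 0.04, and that of all regions was 0.03. This sign depended on the scaling. With library size as the scale the median was 0.23 and that of all regions rose to 0.38. With library size counted without the reads on GL897838 as the scale it was 0.06 against 0.22. Relative to the median of all regions the 500 stood at −0.16, −0.15 and −0.15 under the 3 scalings. The difference was smaller, at −0.08, with regions under a mean of 30 reads left out, and was −0.09 in both edgeR and DESeq2. Without WT3 the median of the 500 was 0.0028 and the difference from all regions shrank to −0.03. The next 500 regions by rank had a median of −0.15, so the shift was not particular to the first 500.

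**Figure D5:**
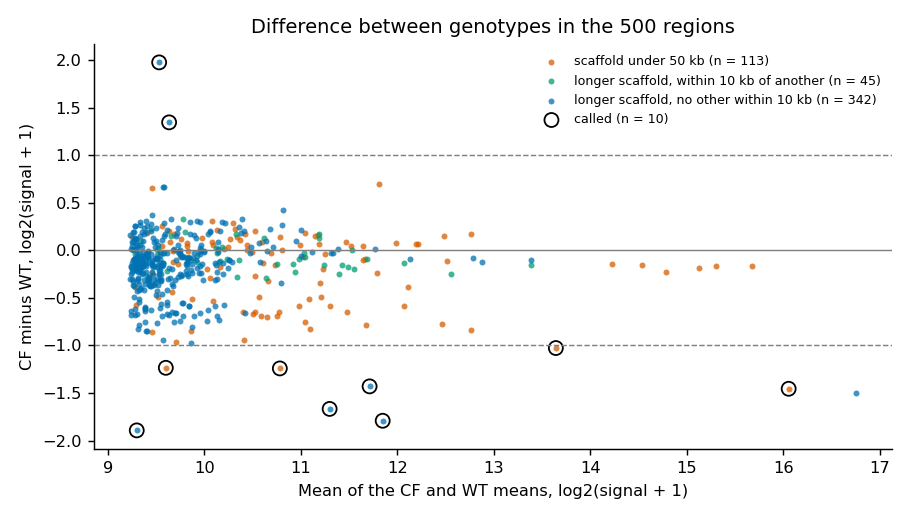
CF minus WT log2(signal + 1) (y axis) against mean log2 signal (x axis) for the 500 regions, coloured by place, with circles around the 10 called and dashed lines at a change of 1 in either direction. Most points lie within 0.5 of 0, and rank 1, at −1.50, is past the line without a call.

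CF was higher in 2 regions past both thresholds, and both stood alone on long scaffolds. GL896948:3123676-3124106, at rank 309 and 431 bp wide, had 1498, 1456 and 1443 in CF1 to CF3 and 603, 303, 338 and 310 in WT1 to WT4. The CF libraries lay close together and far above the highest WT library, with a log2 difference of 1.98 ± 0.21 (SE; adjusted p = 5.6e-06 in limma). It was also the member with the highest fold enrichment in the peak lists. GL897141:1813088-1814029, at rank 266 and 942 bp wide, had 1238, 1279 and 1280 in CF and 563.5, 421.9, 501.3 and 514.5 in WT, a log2 difference of 1.34 ± 0.17 (SE; adjusted p = 3.5e-05 in limma). Both kept their call in each of the 18 alternative fits. Another 3 regions passed the adjusted p with changes of 0.66 to 0.67, GL896979:2771576-2773322, GL897048:137018-138324 and AEYP01113455:522-1495.

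CF was lower in 8 regions past both thresholds. The largest change was at GL896915:3112717-3113114, rank 447 and 398 bp wide, with 386, 284 and 315 in CF1 to CF3 and 748, 766, 2427 and 1555 in WT1 to WT4. All CF libraries were low, WT1 and WT2 were alike, and WT3 and WT4 were higher still. It changed by −1.89 ± 0.30 on the log2 scale (SE; adjusted p = 0.00027 in limma). GL897021:6462062-6462490, at rank 27, had 2136, 1731 and 2098 against 4110, 4670, 13244 and 8700. GL897480:32082-33100, at rank 49, had 1598, 1264 and 1392 against 2838, 3046, 7938 and 5903. GL896914:1870244-1870785, at rank 31, had 2011, 1656 and 2557 against 3873, 3874, 10531 and 5822. These 4 regions changed by −1.89 to −1.43 and kept their call in each of the 18 alternative fits. They lay 0.126 to 0.261 log2 units from the pattern of GL897838, the scaffold that was itself lower in the CF libraries. Only rank 49 was within the limit of 0.2 used for that pattern.

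Another 2 of the 8, on short scaffolds, had WT1 high as well. GL898655:1-1028, at rank 277, had 680, 413 and 458 in CF1 to CF3 and 1566, 795, 1593 and 1011 in WT1 to WT4, and GL898713:1713-3464, at rank 81, had 1516, 910 and 1084 against 3647, 1798, 3915 and 2090. Each changed by −1.24 and lost its call with library size as the scale. The remaining 2 were the contigs at ranks 2 and 9, with changes of −1.46 ± 0.42 and −1.03 ± 0.27 (SE; limma, adjusted p = 0.029 and 0.017). Rank 2 lost its call in 6 of the 18 alternative fits, among them those without CF1, CF2, CF3 or WT4 and that with the replicate block, and rank 9 in 11, among them those without CF1, CF2, CF3, WT3 or WT4 and that with the replicate block. Rank 1 changed by −1.50 ± 0.49 (SE) and narrowly missed the threshold (limma, adjusted p = 0.051), and it was called in 9 of the 18. Among these were the fits in DESeq2 and edgeR, that with library size as the scale, and those without WT2 or without WT3. Among the fits without a call for rank 1 were that with the replicate block and those without CF1, CF2, CF3, WT1 or WT4. Leaving out WT2 raised the number of regions called lower from 8 to 17. In that fit 19 of the 500 were called in either direction, with 7.94% of all regions called. The main fit had 10 of the 500 and 10.6% of all regions.

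The 5 regions with the smallest changes, each at most 0.0032 in size on the log2 scale, were in several places. They lay at ranks 38, 77, 109, 321 and 485. GL897049:4785988-4787923, at rank 485, had 628, 688 and 525 in CF1 to CF3 and 577, 674, 640 and 556 in WT1 to WT4, and GL897167:175612-176454, at rank 38 in a run of 6, had 3646, 2594 and 2731 against 3408, 1999, 4795 and 2316. The means were alike in both, and in the second the libraries spread by more than 2-fold. The SE of the log2 change was 0.18 at GL897049:4785988-4787923 and 0.25 at GL897167:175612-176454, so a change near 0 was known less closely at the higher rank.

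Some of the regions lower in CF by a smaller amount lay on scaffolds that had been chosen for a low CF level. Earlier results of these data had singled out 16 scaffolds that hold 40 or more regions with mean log2 signal over 5 and whose median log2 change relative to all such regions was below −0.3. They were chosen by the same contrast, so the values there are a description. On them lay 41 of the 500 regions (8.20%), compared with 7.21% of all regions. The 41 had a median change of −0.66 and the other members −0.12. Of the 58 regions with an adjusted p under 0.05 in limma and a lower CF level, 28 were on the 16 scaffolds, and none of the 41 was called, although rank 1, past a log2 change of 1, was among them. For all regions lower in CF at that adjusted p, the share on the 16 scaffolds is not given here, so the 28 have no background beside them. With each scaffold centred on its own median, the regions of the 500 with an adjusted p under 0.05 numbered 32 in place of 63, and the calls past both thresholds 11 in place of 10. Past both thresholds 10.0% of all regions were called after centring, in place of 10.6%. The share of all regions under the adjusted p alone is not given for the centred fit, so the 32 have no background beside them.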

How the data were processed

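Bulk ATAC-seq libraries of 3 CF and 4 WT PDE cultures were analysed, with 3226534 to 11047724 reads in regions per library. As the study's methods and the labels state, the authors amplified libraries with 12 PCR cycles, sequenced paired 150 bp reads, aligned them to MusPutFur1.0 with Bowtie 2, used MACS2 for the peaks of each library and DiffBind for a joint set of regions. Neither the shift of read ends nor the treatment of duplicates is given in the sources used here. For each region and library the deposited matrix gave a signal, which equalled a whole number of reads times one factor per library for 100% of values within 0.001 reads. No value was below 1 read. The deposited peak lists gave, per peak, a fold enrichment (ratio), a score, and p-values and q-values as −log10.

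The members and all lists, classes and thresholds used to describe them were chosen with earlier results of these data known. Positions are on MusPutFur1.0, counted from 1. No sequence or annotation of that build was used here. CF and WT were compared with limma 3.58.1 (R 4.3.3) with a mean trend on log2(signal + 1), a pseudocount of 1, over all 95129 regions, with no term other than genotype, Benjamini-Hochberg adjusted. Fold changes are on that log2 scale, on which changes of low regions appear too small. Single values per library were compared with two-sided exact permutation tests over the 35 splits of 7 libraries. The two-sided p doubles the smaller tail, so the smallest p that these tests can give is 0.0571. An overlap of 1 bp counted as a peak present. The named regions were the 10 highest, 5 widest, 5 narrowest and 5 with most signal per base, up to 5 called in each direction with libraries that did not overlap, the 5 with the smallest change, the 5 with the largest WT SD and the 2 regions on each side of the boundary. Others were named after their values were seen, among them all 10 called regions. The limma step was tested on simulated data. Alternatives were other scalings, pseudocounts, filters and thresholds, tests of the recovered reads (DESeq2 1.42.0, edgeR 4.0.16), leaving out each library, a replicate block and other rankings. Computation used scipy 1.17.1, pandas 2.3.3 and numpy 2.4.6 in Python 3.11.15.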

Additional observations from a re-analysis of the deposited data

Results flagged for a closer look

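Of 64 sets of 4 WT values searched, 3 had a library standing apart by Dixon's criterion, and chance marks about 1 in 20. The share of reads in the 500 regions next in rank was 3.03% in WT4 and 3.56% to 3.65% in the other WT libraries. The number of the 500 regions with 2 or more peaks was 70 in the WT2 list and 46 to 48 in the other WT lists. At GL896948:3123676-3124106, the member called more accessible with the largest change, the log2 signal was 9.24 in WT1, above the other WT libraries and below the CF libraries.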

How the results depend on the processing

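Other scalings, pseudocounts, filters and tools left 2 regions called higher in CF and 6 to 10 called lower, except that library size as the scale gave 6 higher and 6 lower and moved the median log2 change from −0.13 to 0.23. The share of all regions called was 8.88% to 13.96% in these fits. Without a fold threshold 5 were higher and 58 lower. At a log2 change past 2 the counts were 0 and 0 in limma, 0 in edgeR and 1 in DESeq2. Without that threshold 94 of the 500 had an unadjusted p under 0.05 in limma. The share of all regions at either setting is not given here, so these counts have no background beside them. With each library left out, 2 regions were called higher in each fit, the number called lower ran from 6 to 17 (17 without WT2), and the median change from −0.22 to 0.0028. The share of all regions called ran from 5.42% (without CF3) to 12.6% (without WT3) in those fits, against 10.6% in the main fit. Ranking by signal per base kept 296 of the 500 and gave a median width of 770 bp. The other rankings kept 443 to 500. Where their median width was computed it was 1319 to 1362.5 bp, and with 250 or 1000 regions in place of 500 it was 1188 and 1367 bp. The read share and the peak width had no exact p under 0.05 in any alternative. The two-sided exact test cannot reach 0.05 here, either with all 7 libraries or with 1 left out.

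With the replicate number as a block, in which WT4 has no partner and does not inform the change, 2 regions were called higher, 8 lower, and the median change was −0.17. The share of all regions called was 11.9% there. Of the 10 calls 8 were kept, and ranks 2 and 9 lost theirs (limma, adjusted p = 0.329 and 0.137). The numbers were not taken as pairs. Over the 500 regions, deviations from the genotype means correlated by 0.71, 0.85 and −0.26 between CF and WT libraries of numbers 1, 2 and 3, and the CF3 library correlated best with WT2, not with its own number. The depth of 3226534 reads in WT3 still gave at least 110 reads in each member.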

Other observations

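Ranked by signal per base in place of total signal, the first 500 regions had 168 on short scaffolds. Of these 500, 21 (4.20%) were called between genotypes in limma, against 10 (2.00%) of the 500 with the most total signal. Both shares were below the 10.6% of all regions.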
